A study of Mus musculus with 40 samples.

Results

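The genes of the elastic fibre described here are 10 of the 21204 genes tested: elastin (Eln), the fibrillins Fbn1 and Fbn2, the microfibril-associated glycoproteins Mfap2, Mfap4 and Mfap5, the fibulins Fbln1, Fbln2 and Fbln5, and Emilin1. They were picked by name, and the choice drew on measured values, since Eln, Mfap2 and Mfap5 had been seen to be higher in immature mice, at a stage that is not stated. Differences between ages are for that reason described by levels and standard errors with no p-value, and the tests concern changes between stages within an age. All 10 genes were found, each under 1 identifier, and all 10 passed the filter of the tested table.

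The study followed rib callus tissue after large-scale rib resection by RNA sequencing of bulk tissue, to compare repair in animals before and after skeletal maturity. Immature mice were 7 weeks old and mature mice were over 10 months old, and both were wild type. The study's methods give female C75BL/6 mice, in that spelling, from Charles River. Composite tissue of bone, bone marrow and intercostal muscle was taken from each age at baseline, on the day of resection and 2, 5 and 14 days later, with no other treatment, and the last 4 are written here as 0dpr to 14dpr (days post-resection). The labels place all tissue after the resection, while the study defines its imaging baseline as the state before surgery. Each of the 10 groups had n = 4 libraries, except mature 5dpr with n = 3, because its replicate 2 was not analysed here, which was no choice by its values, so that 39 of 40 samples enter. The study speaks of 3 or more biological samples per experiment, but no label ties a library to an animal, so the p-values measure the spread between libraries.

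Total counts per library ran from 6057756 to 21537070, with a median of 9087417. The markers of the labelled tissue were present: all 20 genes of a skeletal muscle list, all 9 of an osteoblast list and all 6 of an erythroid marrow list had reads in every group. The most abundant of each were Ttn, Ibsp and Hbb-bs. One library stood apart. Mature 2dpr replicate 3 had reads in 14214 genes, against at least 19068 in each of the other 38 libraries, and its mean correlation with the rest of its group was 0.893. Results that rest on this library are given with and without it. In immature 0dpr the mean correlations with the rest of the group were 0.922, 0.945, 0.937 and 0.95. They were 0.963 to 0.981 in the 31 libraries outside immature 0dpr and mature 2dpr.

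Elastic fibres let skin, lung, vessels and ligaments recoil after stretch. Their core is tropoelastin, the product of Eln, which is crosslinked by lysyl oxidases on a scaffold of fibrillin microfibrils, to which microfibril-associated proteins, fibulins and emilins are bound. In the musculoskeletal system fibrillin microfibrils also occur without elastin, in periosteum, perichondrium, tendon and the connective tissue of muscle, where they hold latent TGF-beta and BMP in the matrix.

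Positions are those of the GRCm38 annotation, and each gene spans its exons and introns. The core gene is Eln (ENSMUSG00000029675, chr5:134702593-134747323). The fibrillin genes are Fbn1 (ENSMUSG00000027204, chr2:125300594-125507993) and Fbn2 (ENSMUSG00000024598). The microfibril-associated genes are Mfap2 (ENSMUSG00000060572, chr4:141010418-141015984), Mfap4 (ENSMUSG00000042436, chr11:61485431-61488900) and Mfap5 (ENSMUSG00000030116, chr6:122505845-122529290). The fibulin genes are Fbln1 (ENSMUSG00000006369, chr15:85205949-85286535), Fbln2 (ENSMUSG00000064080, chr6:91212455-91272540) and Fbln5 (ENSMUSG00000021186, chr12:101746565-101819055), and the last gene is Emilin1 (ENSMUSG00000029163, chr5:30913402-30921277). Exons of 4 of the genes overlap an exon on the opposite strand, and it is not stated whether the counting used the strand that the library kit keeps. For Fbn1 the shared stretch with Gm9913 was 20.1% of the exon length, and Gm9913 had 0 to 30 reads per library. For Mfap4 the overlap with Mapk7 was 4.63% of the exon length, and Mapk7 had 18 to 701 reads. The overlaps of Eln with Gm30003 and of Fbn2 with Gm26507 were 3.30% and 0.976%, with at most 4 reads of the other gene in any library.

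Promoter sequence from RefSeq (GRCm38.p6) is shown for the members that had a stretch free of annotated exons. Their courses after resection differed. Mfap2 rose from 2dpr to 5dpr at both ages, while Fbln1 and Fbln5 fell from 0dpr to 2dpr at both ages. The stretches of 240 bases lie at chr4:141010174-141010413 (plus strand), chr15:85205699-85205938 (plus strand) and chr12:101819130-101819369 (minus strand), upstream of a RefSeq start and outside annotated exons, and are written 5′ to 3′ on the strand of the gene. Capitals mark matches, on either strand, to the motif of the TATA box, TATAAA, that of the GC box, GGGCGG, the CCAAT box itself, the motif of the factor AP-1, TGANTCA, or that of the Smad factors, CAGACA. No motif overlaps another.
Mfap2: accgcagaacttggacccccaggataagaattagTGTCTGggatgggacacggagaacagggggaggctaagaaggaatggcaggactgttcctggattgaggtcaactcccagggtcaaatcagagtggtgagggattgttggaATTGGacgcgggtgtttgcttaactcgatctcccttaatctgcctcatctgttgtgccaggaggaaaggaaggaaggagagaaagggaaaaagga
Fbln1: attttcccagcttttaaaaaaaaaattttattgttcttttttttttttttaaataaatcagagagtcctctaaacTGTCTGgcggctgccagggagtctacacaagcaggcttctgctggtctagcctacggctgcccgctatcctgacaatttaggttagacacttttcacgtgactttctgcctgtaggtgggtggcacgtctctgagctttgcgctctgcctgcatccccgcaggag
Fbln5: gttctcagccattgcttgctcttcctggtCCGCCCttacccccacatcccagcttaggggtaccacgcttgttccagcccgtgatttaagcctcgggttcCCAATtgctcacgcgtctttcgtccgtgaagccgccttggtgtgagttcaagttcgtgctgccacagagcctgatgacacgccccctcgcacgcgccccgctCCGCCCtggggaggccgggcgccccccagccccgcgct
Mfap2 held 1 CCAAT box and 1 Smad motif, Fbln1 held 1 Smad motif, and Fbln5 held 2 GC boxes and 1 CCAAT box. Among all 32851 stretches of this length, 33.0% held CCAAT, 16.5% CAGACA, 31.3% GGGCGG, 12.1% TATAAA and 6.58% TGANTCA. The G and C content was 51.2% in Mfap2, 45.8% in Fbln1 and 65.0% in Fbln5, against a median of 52.1%. The matches describe these letters only. The reference held no promoter for Eln, Fbn2, Mfap4 and Mfap5, and for Fbn1, Fbln2 and Emilin1 an annotated exon lay in the stretch.

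Eln and Fbn1 rose at the first step at both ages. Between baseline and 0dpr, Eln and Fbn1 rose in immature mice, which is 2 of 10 members against 5.98% of all genes, and the other 8 did not pass the test while 4.66% of all genes fell. In mature mice Eln, Fbn1 and Fbln2 rose, which is 3 of 10 against 11.9%, and Fbn2 and Emilin1 fell, which is 2 of 10 against 10.6%. Without mature baseline replicate 1 or 2, or 0dpr replicate 2 or 3, the mature count of 5 was 3, 2, 3 and 1. A change passed where the Benjamini-Hochberg adjusted p of edgeR's quasi-likelihood test over all genes was below 0.05. The median log2 fold change of the members was 0.48 in immature and 0.46 in mature mice, against 0.00 and −0.02 for all genes. In a fit with a muscle score as covariate both immature changes passed. None of the 5 mature changes did, but the estimates of those that rose were of similar size with larger SEs: 1.17 ± 0.44 for Eln (without the covariate 1.11 ± 0.32), 0.69 ± 0.30 for Fbn1 (0.61 ± 0.22) and 0.69 ± 0.27 for Fbln2 (0.82 ± 0.20). Those of Fbn2 and Emilin1 were −0.55 ± 0.52 (−1.08 ± 0.40) and −0.50 ± 0.32 (−0.77 ± 0.24). Over all genes this fit called 95 genes in mature mice instead of 4775. Fitted on the compared groups alone, neither immature change passed (adjusted p = 0.0756 for Eln and 0.0727 for Fbn1), with log2 fold changes of 1.45 and 1.34 (1.45 and 1.34 in the fit of all groups). Over all genes this fit called 48 genes in immature mice instead of 2257. DESeq2 called Mfap5 at both ages as well (adjusted p = 0.0336 and 0.0353) and Fbln2 in immature mice (0.0442).

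Several marker lists moved at this first step, and their part in it was not tested. In mature mice 20 of 20 skeletal muscle, 6 of 9 vascular smooth muscle, 4 of 6 endothelial, 1 of 6 adipocyte and 1 of 9 fibroblast markers rose, while 1 of 9 fibroblast, 1 of 8 chondrocyte, 7 of 7 macrophage and 6 of 9 osteoblast markers fell. In immature mice 1 of 20 skeletal muscle, 2 of 9 vascular smooth muscle, 5 of 6 endothelial, 4 of 6 adipocyte and 2 of 9 fibroblast markers rose, and 1 of 7 macrophage and 1 of 9 osteoblast markers fell. The endothelial sum went from 455 to 639.7 CPM in immature mice and from 533 to 653 CPM in mature mice, with Pecam1 the most abundant. The adipocyte sum went from 863 to 1795 CPM and from 1038 to 1647 CPM, with Fabp4 the most abundant.

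From 0dpr to 2dpr the members moved in both directions. Fbn1, Fbn2, Mfap5, Fbln2 and Emilin1 rose at both ages, which is 5 of 10 in immature mice against 21.8% of all genes and 5 of 10 in mature mice against 22.7%. Fbln1 and Fbln5 fell at both ages and Mfap4 passed as lower in immature mice, which makes 3 of 10 against 22.2% in immature and 2 of 10 against 24.9% in mature mice. The members' median was 0.36 and 0.63, against −0.04 and −0.05 for all genes. With the muscle score as covariate 3 of 8 immature and 2 of 7 mature changes passed, with SEs about double those without it. Some of the estimates that no longer passed were of similar size: in mature mice 1.18 ± 0.53 for Fbn1 (1.36 ± 0.22 without the covariate), 0.92 ± 0.51 for Mfap5 (0.83 ± 0.20) and 1.53 ± 0.48 for Fbln2 (1.22 ± 0.20). Others were smaller, such as Emilin1 at 0.52 ± 0.54 in mature (1.16 ± 0.24) and 0.75 ± 0.45 in immature mice (1.25 ± 0.24), and Fbn2 at 0.76 ± 0.67 in immature mice (1.64 ± 0.34). Fbn2 in mature mice changed sign, at −0.09 ± 0.85 (1.06 ± 0.39). Without mature 2dpr replicate 3 the mature count was 6, with Fbn2 lost. Fitted on the compared groups alone, Mfap4 and Mfap5 in immature mice (adjusted p = 0.126 and 0.076) and Fbn2 in mature mice (0.0824) did not pass, with log2 fold changes of −0.59, 0.53 and 1.08 (−0.61, 0.50 and 1.06 in the fit of all groups). DESeq2 did not call Mfap5 in immature mice (0.102).

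All 20 muscle markers fell at both ages from 0dpr to 2dpr, as did all 6 adipocyte and all 6 erythroid markers, 3 and 8 of 9 osteoblast markers and 4 and 3 of 7 tendon markers in immature and mature mice. Of 9 vascular smooth muscle markers 5 and 6 fell and 1 rose at each age. Of 9 fibroblast markers 5 fell and 1 rose in immature mice, and 3 fell and 3 rose in mature mice. Of 6 endothelial markers 2 fell in immature mice, and 3 fell and 2 rose in mature mice. All 7 macrophage markers rose at both ages, as did 1 tendon marker in immature mice and 1 chondrocyte marker in mature mice, while 1 chondrocyte marker fell in immature mice. The fibroblast sum went from 14742 to 16915 CPM in immature mice and from 5876 to 8820 CPM in mature mice. The part of these cells in the members' changes was not tested.

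From 2dpr to 5dpr the members that passed all rose. In immature mice Fbn2, Mfap2, Mfap4, Mfap5 and Fbln5 rose, 5 of 10 against 4.37% of all genes, while 3.68% of all genes fell. In mature mice 9 of 10 rose against 8.16%, all but Fbln2, while 6.38% of all genes fell. Fbln2 (log2 0.61 ± 0.21, adjusted p = 0.0523) was called by DESeq2 (0.59, adjusted p = 0.0438). Without mature 2dpr replicate 3 it was 0.49 ± 0.225 in the edgeR fit (adjusted p = 0.16). For all 10 members, Fbln2 included, every mature 5dpr library lay above every mature 2dpr library. How many of all genes separate in this way was not counted, so this does not set the members apart from other genes. The median log2 fold change was 0.84 in immature and 1.57 in mature mice, against 0.01 and 0.06 for all genes. The mature count was 9 without 2dpr replicate 3 as well, and the muscle score as covariate left 5 and 9 members past the threshold. Fitted on the compared groups alone, Mfap2 and Emilin1 in mature mice did not pass (adjusted p = 0.0795 and 0.123), with log2 fold changes of 3.02 and 0.97 (3.02 and 0.98 in the fit of all groups). In immature mice that fit called Eln as well (log2 0.74, adjusted p = 0.0164). Over all genes it called 714 genes instead of 3084 in mature and 2988 instead of 1707 in immature mice.

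Between 5dpr and 14dpr few members passed. Among all genes that passed in mature mice, the share that rose was 46.7% with edgeR and 57.5% with DESeq2 at this step. Fbln1 and Fbln5 rose in immature mice, 2 of 10 against 1.73% of all genes, and Fbn2 and Fbln5 rose in mature mice, 2 of 10 against 1.95%, while 1.45% and 2.23% of all genes fell. Of these, the rise of Fbln5 passed at both ages in each fit that left out 1 library. The count was 1 instead of 2 in 7 of 8 immature fits that left out a library, all but that without 14dpr replicate 2, and in 5 of 7 mature fits, all but those without 5dpr replicate 4 or 14dpr replicate 4. With the muscle score as covariate it was 1 at each age. Fitted on the compared groups alone 5 mature members passed, with Mfap2 (adjusted p = 0.0042), Mfap4 (0.00462) and Fbln1 (0.0162) added. The mature 5dpr and 14dpr libraries of Mfap2, Mfap4, Fbln1 and Fbln5 did not overlap, which was not counted over all genes and so does not set these members apart. DESeq2 called Mfap2 in mature mice too (adjusted p = 0.0488). Among the markers, 4 and 4 of 9 osteoblast, 0 and 4 of 8 chondrocyte, 1 and 4 of 7 tendon and 2 and 3 of 9 fibroblast markers rose at this step in immature and mature mice. At the same step 3 and 2 of 20 muscle, 4 and 5 of 9 vascular smooth muscle and 0 and 3 of 6 adipocyte markers fell. The osteoblast sum went from 522 to 1765 CPM in immature mice and from 194 to 745 CPM in mature mice, with Ibsp the most abundant. The part of these cells in the members' rise was not tested.

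Over the whole course, from baseline to 14dpr, 9 of 10 members rose at both ages, all but Fbln1, against 16.4% of all genes in immature and 17.1% in mature mice, while 15.1% and 16.4% fell. Over this course 20 of 20 muscle markers fell in immature and 16 of 20 in mature mice. Other markers rose with the members: 8 and 8 of 8 chondrocyte, 4 and 7 of 7 tendon, 8 and 8 of 9 fibroblast, 4 and 4 of 6 endothelial and 7 and 7 of 7 macrophage markers. At each age 1 endothelial marker fell. Of 6 adipocyte markers 5 and 6 fell, and all 6 erythroid markers fell at both ages. Of 9 osteoblast markers 3 rose in immature and 2 fell in mature mice, and of 9 vascular smooth muscle markers 2 and 3 rose and 3 and 3 fell. The part of these cells was not tested. With the muscle score as covariate 7 members passed in immature mice, without Fbln5 (0.43 ± 0.21 instead of 0.84 ± 0.13) and Emilin1 (0.81 ± 0.39 instead of 1.23 ± 0.24), and 9 in mature mice. The median log2 fold change of the members over the course was 2.07 in immature and 3.27 in mature mice, against −0.04 and −0.03 for all genes. In bulk tissue a larger share of cells that make a transcript and more transcript per cell cannot be told apart.

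**Figure D1:**
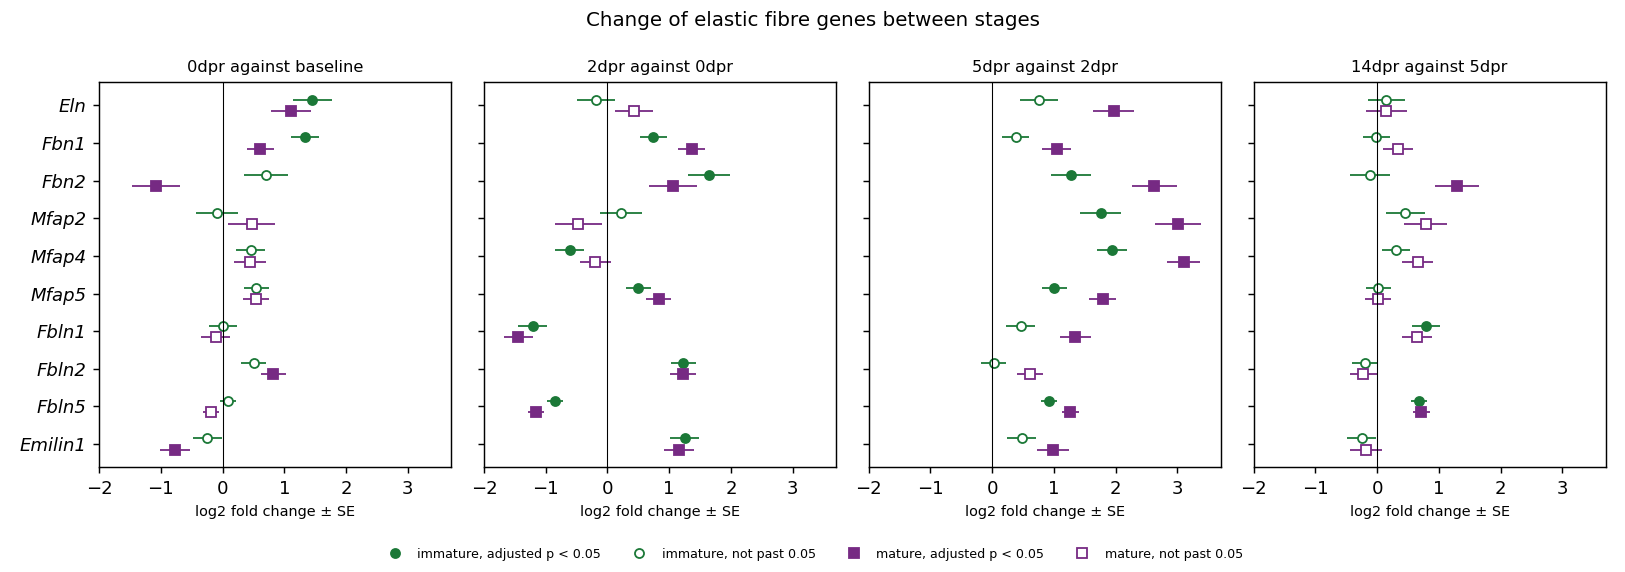
Log2 fold change between neighbouring stages (x axis, points, with bars of ± 1 SE) for the 10 elastic fibre genes (y axis) in immature (green circles) and mature mice (purple squares), filled where the adjusted p is below 0.05. From 2dpr to 5dpr all estimates lie above 0, up to 3.10 for Mfap4 in mature mice.

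Eln encodes tropoelastin, the elastic core protein. In immature mice its level in CPM (counts relative to the library size, scaled by TMM) was 116, 119.6, 109 and 73.4 in the 4 baseline libraries, 500.3, 211, 183 and 249 at 0dpr and 222, 276, 252 and 257 at 2dpr. It was 261, 469, 452 and 518 at 5dpr and 368, 331, 634 and 556 at 14dpr. Every 0dpr library lay above every baseline library, and replicate 1 of 0dpr was the highest of its group by a wide margin. The rise from baseline to 0dpr was 2.73-fold (log2 1.45 ± 0.31, adjusted p = 0.00401). From 0dpr to 2dpr and from 2dpr to 5dpr the log2 fold changes were −0.18 ± 0.31 and 0.76 ± 0.31, neither past the threshold (adjusted p = 0.658 and 0.14). The second of these passed in the fit of the compared groups alone (adjusted p = 0.0164).

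In mature mice Eln was 23.4, 31.2, 29.9 and 38.4 CPM at baseline, 39.5, 58.8, 107 and 58.9 at 0dpr and 85.4, 140.1, 86.9 and 44.6 at 2dpr. It reached 328, 409 and 309.6 at 5dpr and 404, 575, 273 and 298 at 14dpr. The baseline libraries were all below those of 0dpr, and the 5dpr libraries were all above those of 2dpr. Eln rose 2.16-fold from baseline to 0dpr (log2 1.11 ± 0.32, adjusted p = 0.0105) and 3.91-fold from 2dpr to 5dpr (log2 1.97 ± 0.33, adjusted p = 7.39e-05). Without mature 0dpr replicate 3 the first of these was 0.79 (adjusted p = 0.0945). From baseline to 14dpr the log2 fold change was 3.66 ± 0.34 in mature and 2.18 ± 0.32 in immature mice.

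Fbn1 encodes fibrillin-1, the main structural protein of microfibrils after birth. In immature mice it was at 434, 341, 318 and 196 CPM at baseline, 1020, 556, 1008 and 675 at 0dpr and 1183, 1550, 1446 and 1275 at 2dpr. At 5dpr and 14dpr it was at 1495, 2160, 2035 and 1420 and at 2004, 1241, 2186 and 1602 CPM. The libraries of baseline, 0dpr and 2dpr formed 3 levels that did not overlap, and those of 5dpr and 14dpr overlapped. Fbn1 rose 2.53-fold from baseline to 0dpr (log2 1.34 ± 0.22, adjusted p = 0.000419) and 1.67-fold from 0dpr to 2dpr (log2 0.74 ± 0.22, adjusted p = 0.00602).

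In mature mice Fbn1 was at 197, 249.8, 180.4 and 269 CPM at baseline, 310.1, 336, 417 and 308 at 0dpr and 895, 1061, 935 and 640.1 at 2dpr. It was at 1547, 1937 and 1971 at 5dpr and 2955, 1875, 2014 and 2374 at 14dpr. The first 4 stages formed levels that did not overlap. The rise was 1.53-fold from baseline to 0dpr (adjusted p = 0.0417), 2.58-fold to 2dpr (adjusted p = 4e-06) and 2.06-fold to 5dpr (adjusted p = 0.00212). The first of these missed the threshold in 6 of 8 fits that left out 1 library, all but those without baseline replicate 4 or 0dpr replicate 1, with log2 fold changes from 0.52 to 0.67 and adjusted p up to 0.134. Over the whole course the log2 fold change was 2.45 ± 0.23 in immature and 3.36 ± 0.24 in mature mice.

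Fbn2 encodes fibrillin-2, the fibrillin best known from developing tissue. It started low, at 5.37, 8.56, 8.06 and 14.4 CPM in the immature baseline libraries, with 21.96, 17.1, 9.38 and 11.3 at 0dpr and 40.6, 38.4, 42.6 and 63.4 at 2dpr. At 5dpr it was at 84.1, 126, 147 and 90.3 CPM and at 14dpr at 112, 65.3, 131 and 106 CPM. The 2dpr libraries were all above those of 0dpr, and the 5dpr libraries all above those of 2dpr. The rise was 3.12-fold (log2 1.64 ± 0.34, adjusted p = 0.000171) at the first of these steps and 2.42-fold (log2 1.28 ± 0.33, adjusted p = 0.0101) at the second. Without immature 5dpr replicate 4 the second was 1.11 (adjusted p = 0.053).

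In mature mice Fbn2 was at 10.1, 13.3, 6.51 and 4.60 CPM at baseline, 5.49, 3.24, 3.21 and 4.72 at 0dpr and 7.19, 11.8, 11.7 and 4.35 at 2dpr. It was at 52.6, 38.8 and 68.0 CPM at 5dpr and 181, 149, 133 and 60.0 CPM at 14dpr, where replicate 4 lay below the other 3 and within the range of 5dpr. Fbn2 rose 6.18-fold from 2dpr to 5dpr (log2 2.63 ± 0.37, adjusted p = 3.93e-06), with no overlap. The smaller changes of Fbn2 in mature mice depended on single libraries. The fall from baseline to 0dpr (log2 −1.08 ± 0.40, adjusted p = 0.0454) missed the threshold in 5 of 8 fits that left out 1 library, all but those without baseline replicate 3 or 4 or 0dpr replicate 4, with adjusted p up to 0.215. The rise from 0dpr to 2dpr (1.06 ± 0.39, adjusted p = 0.0254) missed it in 4, without replicate 2 or 3 of either stage, with adjusted p up to 0.0900, and was −0.09 with the muscle score as covariate. The rise from 5dpr to 14dpr (1.30 ± 0.36, adjusted p = 0.0301) missed it in 5 of 7, all but those without 5dpr replicate 4 or 14dpr replicate 4, with adjusted p up to 0.175. From baseline to 14dpr the log2 fold change was 3.91 ± 0.37, and 3.50 ± 0.36 in immature mice.

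**Figure D2:**
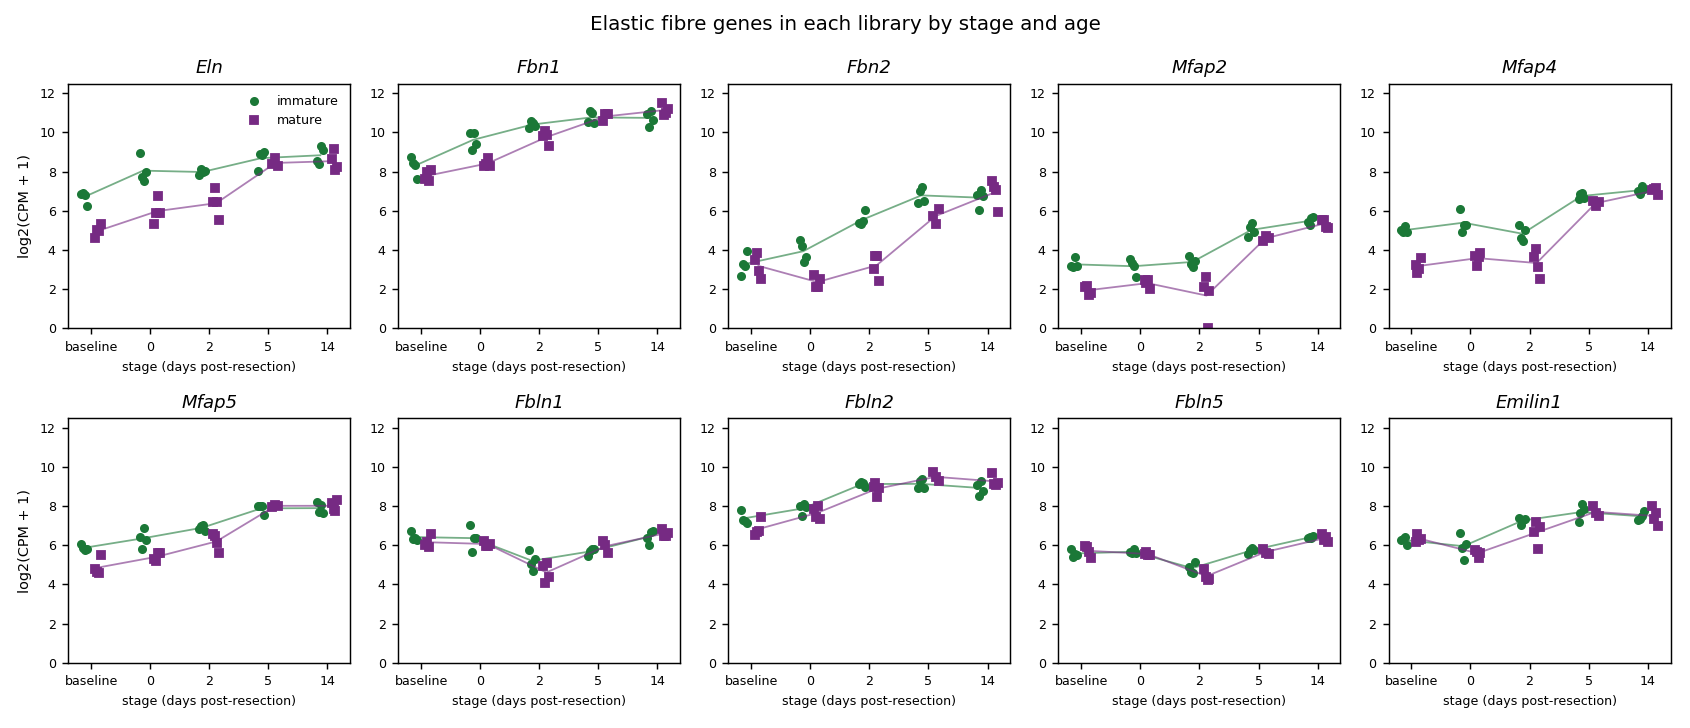
Level of each of the 10 genes as log2(CPM + 1) (y axis) in every library by stage (x axis), for immature (green circles) and mature mice (purple squares), with lines through the group means. The symbols of both ages lie close together at 14dpr, and the single square at 0 is Mfap2 in mature 2dpr replicate 3.

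Mfap2 encodes the microfibril-associated glycoprotein MAGP-1, which binds fibrillin and TGF-beta family ligands. In immature mice Mfap2 was at 7.88, 7.52, 11.3 and 7.85 CPM at baseline, 10.6, 8.999, 7.83 and 5.15 at 0dpr and 11.9, 8.55, 7.62 and 9.87 at 2dpr. It was at 24.1, 34.6, 40.4 and 28.6 CPM at 5dpr and 41.1, 38.02, 47.6 and 49.4 CPM at 14dpr. The first 3 stages overlapped, and all 5dpr libraries lay above them. The rise from 2dpr to 5dpr was 3.37-fold (log2 1.75 ± 0.33, adjusted p = 0.000597).

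In mature mice Mfap2 was at 3.25, 3.35, 2.27 and 2.47 CPM at baseline, 4.55, 3.87, 4.43 and 2.92 at 0dpr and 3.30, 5.11, 0 and 2.73 at 2dpr. It was at 21.0, 24.8 and 23.4 CPM at 5dpr and 45.2, 45.5, 35.3 and 34.0 CPM at 14dpr. The value of 0 belongs to mature 2dpr replicate 3, which had 0 of 7884546 reads on Mfap2, a count that allows up to 0.333 CPM by counting error alone. Mfap2 rose 8.08-fold from 2dpr to 5dpr (log2 3.02 ± 0.37, adjusted p = 4.8e-07), and without that library the log2 fold change was 2.65 ± 0.24 (adjusted p = 1.88e-09). From 5dpr to 14dpr it was 0.79 ± 0.35 (adjusted p = 0.205), and without mature 2dpr replicate 3 in the fit the adjusted p was 0.015. From baseline to 14dpr the log2 fold change was 3.81 ± 0.37 in mature and 2.35 ± 0.34 in immature mice.

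Mfap4, a fibrinogen-domain protein that binds elastin and fibrillin, had the largest fold change of the 10 from 2dpr to 5dpr at both ages. In immature mice it was at 36.8, 23.3, 20.4 and 31.2 CPM at 2dpr and 96.0, 115, 119 and 98.0 CPM at 5dpr, after 31.4, 28.7, 35.9 and 28.6 at baseline and 67.4, 29.2, 37.6 and 37.1 at 0dpr. In mature mice it was at 8.28, 6.12, 7.20 and 10.99 CPM at baseline, 11.8, 7.86, 11.5 and 13.1 at 0dpr, 11.3, 15.2, 7.66 and 4.76 at 2dpr and 88.3, 73.5 and 86.0 at 5dpr. The 5dpr libraries exceeded all earlier ones at both ages. The rise was 3.83-fold in immature mice (log2 1.94 ± 0.24, adjusted p = 1.05e-06) and 8.56-fold in mature mice (log2 3.10 ± 0.26, adjusted p = 1.72e-10). At 14dpr it was at 129, 113, 151 and 136 CPM in immature and 131, 139, 141 and 111 CPM in mature mice, which overlapped. From baseline to 14dpr the log2 fold change was 2.08 ± 0.24 and 4.01 ± 0.27. The lower level at 2dpr than at 0dpr in immature mice (log2 −0.61 ± 0.23, adjusted p = 0.0332) rested on 0dpr replicate 1, without which it was −0.29 (adjusted p = 0.321). It also missed the threshold without immature 2dpr replicate 2 (0.0961) or 3 (0.124).

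Mfap5 encodes MAGP-2, which binds fibrillins. In immature mice it was at 65.3, 57.2, 53.7 and 55.2 CPM at baseline, 85.7, 56.0, 119 and 76.7 at 0dpr, 113, 127, 131 and 107 at 2dpr, 256, 256, 260.1 and 185 at 5dpr and 294, 206, 269.7 and 201 at 14dpr. Mature mice had Mfap5 at 26.3, 23.6, 23.2 and 43.9 CPM at baseline, 38.3, 36.1, 47.4 and 47.4 at 0dpr, 96.3, 87.0, 69.7 and 47.6 at 2dpr, 248, 271 and 259 at 5dpr and 284, 235, 215 and 317 at 14dpr. Every 5dpr library exceeded every 2dpr library at both ages, and the 2 last stages overlapped. The rise from 2dpr to 5dpr was 2.01-fold in immature mice (log2 1.00 ± 0.20, adjusted p = 0.00113) and 3.46-fold in mature mice (log2 1.79 ± 0.22, adjusted p = 3.43e-07). From 0dpr to 2dpr the log2 fold change was 0.83 ± 0.20 in mature mice (adjusted p = 0.00108) and 0.50 ± 0.20 in immature mice (adjusted p = 0.0438). The immature value missed the threshold in 6 of 8 fits that left out 1 library, all but those without 0dpr replicate 3 or 2dpr replicate 4, with adjusted p up to 0.136. From baseline to 14dpr the log2 fold change was 2.07 ± 0.21 and 3.17 ± 0.22.

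Fbln1 and Fbln5 followed another course from that of the fibrillins, with their lowest levels at 2dpr. Fbln1, a fibulin that binds elastin and basement membrane proteins, was at 130.3, 50.2, 83.02 and 82.2 CPM at 0dpr and 53.9, 32.4, 25.1 and 38.2 CPM at 2dpr in immature mice. The corresponding libraries of mature mice were at 75.0, 60.6, 62.5 and 67.4 CPM and 30.2, 15.7, 32.8 and 19.6 CPM. The groups overlapped in immature mice, through 0dpr replicate 2 and 2dpr replicate 1, and not in mature mice. Fbln1 fell in immature mice (log2 −1.21 ± 0.23, adjusted p = 6.37e-05) and in mature ones (log2 −1.44 ± 0.24, adjusted p = 4.36e-06). In mature mice Fbln1 then rose 2.54-fold to 5dpr (adjusted p = 0.000225). In immature mice the change to 5dpr did not pass (log2 0.46 ± 0.23, adjusted p = 0.267). Immature Fbln1 was at 42.7, 52.0, 55.5 and 55.0 CPM at 5dpr and 82.7, 64.3, 102 and 107 CPM at 14dpr (log2 0.79 ± 0.23, adjusted p = 0.0496). That rise passed in 1 of 8 fits that left out 1 library, the one without 14dpr replicate 2, with adjusted p up to 0.180 in the others. In mature mice the change from 5dpr to 14dpr was 0.65 ± 0.25 (adjusted p = 0.144). Between baseline and 14dpr Fbln1 did not pass at either age (log2 0.05 ± 0.23 and 0.44 ± 0.23, adjusted p = 0.891 and 0.143). Fitted on the compared groups alone it passed in mature mice (log2 0.45, adjusted p = 0.0313).

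Fbln5 tethers tropoelastin to microfibrils and cells. In immature mice it was at 55.4, 41.6, 46.9 and 45.3 CPM at baseline, 50.04, 47.5, 55.3 and 48.0 at 0dpr, 29.1, 24.2, 23.5 and 34.7 at 2dpr, 46.5, 53.5, 56.9 and 53.9 at 5dpr and 83.2, 85.2, 80.8 and 89.2 at 14dpr. In mature mice it was at 62.5, 58.4, 50.2 and 39.5 CPM at baseline, 46.1, 49.1, 45.2 and 44.5 at 0dpr, 26.6, 19.9, 17.9 and 18.5 at 2dpr, 55.0, 47.8 and 46.9 at 5dpr and 93.4, 77.4, 85.5 and 72.2 at 14dpr. From 0dpr onward neighbouring stages did not overlap at either age. Fbln5 fell by a factor of 1.80 in immature and 2.23 in mature mice from 0dpr to 2dpr (adjusted p = 2.96e-06 and 7.93e-09). It then rose 1.89-fold and 2.41-fold to 5dpr (adjusted p = 1.76e-05 and 8.85e-08), and 1.60-fold and 1.65-fold to 14dpr (adjusted p = 0.00147 and 0.002). These changes passed in each fit that left out 1 library.

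Fbln2, a larger fibulin found in vessel walls and developing cartilage, rose early. In immature mice it was at 227, 158, 151 and 142 CPM at baseline, 254, 178, 277 and 253 at 0dpr and 569, 601, 586 and 503 at 2dpr. In mature mice it was at 91.1, 101, 104 and 172 CPM at baseline, 229, 173, 258 and 164 at 0dpr and 498, 587, 359 and 481 at 2dpr. All 2dpr libraries lay above all 0dpr libraries at both ages. The rise from 0dpr to 2dpr was 2.35-fold in immature mice (log2 1.23 ± 0.20, adjusted p = 6.09e-06) and 2.34-fold in mature mice (log2 1.22 ± 0.20, adjusted p = 5.5e-06). In mature mice it had already risen 1.76-fold from baseline to 0dpr (adjusted p = 0.00358), with 1 baseline library, replicate 4, inside the range of 0dpr. At the later stages group means lay between 498 and 734 CPM.

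Emilin1 encodes an emilin, a glycoprotein at the border of elastin and microfibrils. In immature mice it was at 77.3, 80.3, 84.9 and 65.0 CPM at baseline, 99.8, 57.8, 37.1 and 65.2 at 0dpr, 171, 129, 155 and 161 at 2dpr and 145, 202, 279.6 and 229 at 5dpr. Mature mice had Emilin1 at 71.7, 96.2, 77.7 and 80.7 CPM at baseline, 53.5, 49.6, 40.2 and 47.5 at 0dpr, 102, 147, 54.7 and 124 at 2dpr and 254, 198 and 182 at 5dpr. The lowest mature 2dpr value was that of replicate 3, the library that stood apart. From 0dpr to 2dpr Emilin1 rose 2.38-fold in immature mice (adjusted p = 6.18e-05) and 2.24-fold in mature mice (adjusted p = 0.00014), and without that library the mature log2 fold change went from 1.16 ± 0.24 to 1.38 ± 0.23. In mature mice it rose again from 2dpr to 5dpr (log2 0.98 ± 0.25, adjusted p = 0.00685), with 0.77 ± 0.24 and adjusted p = 0.03 without replicate 3 of 2dpr and 0.83 (adjusted p = 0.0545) without replicate 1 of 5dpr. The fall in mature mice between baseline and 0dpr (log2 −0.77 ± 0.24, adjusted p = 0.0183) was −0.69 (adjusted p = 0.0696) without baseline replicate 2 and −0.68 (adjusted p = 0.0793) without 0dpr replicate 3.

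The difference between ages is described at each stage with no p-value for the members, since measured age differences chose some of them. At baseline Eln, Mfap2, Mfap4 and Mfap5 were higher in every immature library than in any mature library, a separation not counted over all genes. Eln, Mfap2 and Mfap5 are those already seen to be higher in immature mice when the members were chosen. The log2 differences, immature minus mature, were 1.77 ± 0.32 for Eln, 1.60 ± 0.37 for Mfap2, 1.94 ± 0.25 for Mfap4 and 0.99 ± 0.21 for Mfap5. The other 6 ranged from −0.16 for Fbln5 to 0.54 for Fbln2. At 0dpr all 10 estimates were above 0, from 0.12 for Fbln5 to 2.11 for Eln. At 2dpr all 10 were above 0 again, from 0.23 for Fbln2 to 2.43 for Fbn2. Without mature 2dpr replicate 3 the 2dpr differences ran from 0.11 for Fbln2 to 2.60 for Fbn2, and that of Mfap2 went from 1.73 to 1.37.

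Late in the course the estimates lay on both sides of 0. At 5dpr 6 of 10 estimates were above 0 and at 14dpr 4 of 10, with ranges from −0.36 for Fbln2 to 1.08 for Fbn2 and from −0.39 for Fbn1 to 0.29 for Eln. For Eln the 5 differences in order of stage were 1.77, 2.11, 1.50, 0.28 and 0.29. For Mfap4 they were 1.94, 1.95, 1.53, 0.38 and 0.01, for Fbn2 0.07, 1.85, 2.43, 1.08 and −0.34, and for Fbln2 0.54, 0.22, 0.23, −0.36 and −0.34. Fibroblast markers had a like course. They summed to means of 15758, 14742, 16915, 40523 and 46090 CPM in immature mice, in order of stage. In mature mice the means were 9616, 5876, 8820, 32533 and 48806 CPM. Macrophage markers went the other way at baseline, with 2040 CPM in immature and 2911 CPM in mature mice. The part of such cells in the age differences was not tested. For the scale of age differences in these libraries, the shares of all genes called higher in immature mice were 0.358%, 0.571%, 0.457%, 0% and 0% in order of stage, and those called lower 0.226%, 0.156%, 0.17%, 0% and 0.00943%. These shares moved with the processing. Fitted on the compared groups alone, 210 genes were higher and 261 lower at baseline, instead of 76 and 48. At 0dpr that fit called 0 genes, instead of 121 higher and 33 lower. DESeq2 called 168 higher and 167 lower at baseline, and 24 and 12 at 5dpr.

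**Figure D3:**
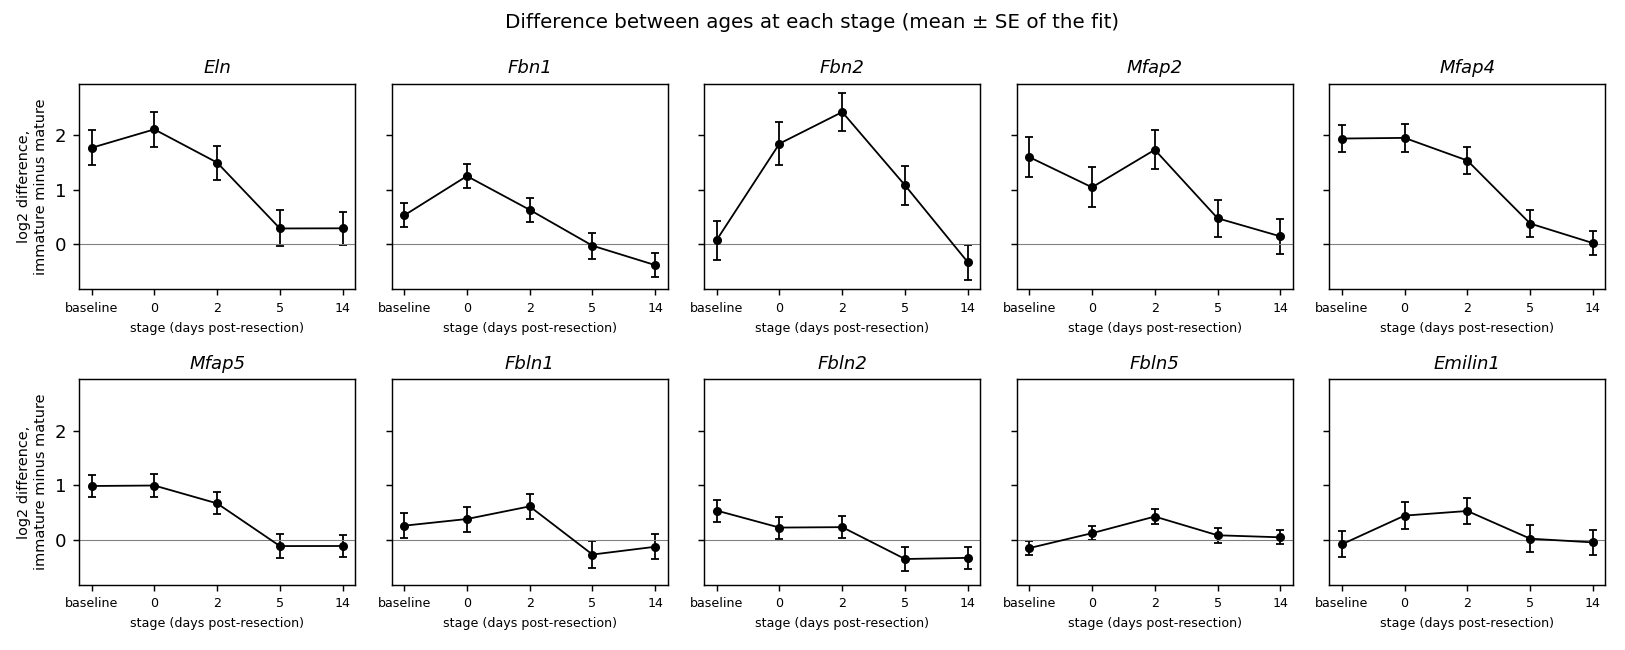
Difference in log2 level between immature and mature mice (y axis, points, with bars of ± 1 SE of the fit) at each stage (x axis) for the 10 genes, as a description with no test. For Eln the points go from 1.77 at baseline to 0.29 at 14dpr, and for Fbn2 the highest point is 2.43 at 2dpr.

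Levels of different members were compared per length of exon, as RPKM (CPM divided by the kilobases of the union of exons, mean ± SD of the libraries), and neighbours in the order were taken as apart where their means differed by more than the sum of their SDs. At immature baseline the highest RPKM levels were 26.6 ± 6.13 for Fbln2 and 26.6 ± 8.05 for Fbn1, and no neighbours were apart from there down to Eln at 12.9 ± 2.62. Mfap2 at 7.14 ± 1.49 and Fbln5 at 6.84 ± 0.844 RPKM formed the next level, and Fbn2 at 0.687 ± 0.286 the last. At mature baseline Fbn1, Fbln2, Emilin1 and Fbln1 formed the upper level, from 18.5 ± 3.46 to 16.4 ± 3.58 RPKM. Mfap5 and Fbln5 came next at 8.14 ± 2.75 and 7.62 ± 1.47, then Mfap4 and Eln at 4.24 ± 1.09 and 3.79 ± 0.76, Mfap2 at 2.34 ± 0.451 and Fbn2 at 0.653 ± 0.293 RPKM.

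By 14dpr the RPKM levels of both ages formed nearly the same order. Fbn1 stood apart at the top, at 145 ± 34.8 in immature and 190.0 ± 39.8 RPKM in mature mice. No neighbours were apart from Fbln2, at 78.2 ± 17.6 and 98.7 ± 20.4 RPKM, through Mfap4, Mfap5, Eln and Emilin1 down to Mfap2, at 36.4 ± 4.44 and 33.0 ± 5.12 RPKM. Fbln1 was next and apart, at 20.4 ± 4.46 and 22.3 ± 2.52 RPKM. Fbln5 and Fbn2 were lowest, at 12.2 ± 0.514 and 7.83 ± 2.09 RPKM in immature mice and 11.9 ± 1.35 and 9.89 ± 3.87 RPKM in mature mice, apart from each other in immature mice only.

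The ratios of 2 pairs of related genes were taken within each library, so that library scaling drops out, and compared between baseline and each later stage. The log2 ratio of Fbn2 to Fbn1, with 0.5 added to each count, was −4.29, −4.22, −4.78 and −5.85 in the mature baseline libraries, −5.80, −6.67, −6.99 and −6.00 at 0dpr and −6.95, −6.49, −6.32 and −7.19 at 2dpr. It was −4.88, −5.64 and −4.86 at 5dpr and −4.03, −3.66, −3.92 and −5.30 at 14dpr. The 2dpr values all lay below the baseline values, with a difference of means of −1.95, which had an exact two-sided permutation p of 0.0286, the smallest that 4 against 4 libraries can give, and 0.229 after adjustment over the 16 comparisons. In immature mice the ratio was −6.32, −5.31, −5.29 and −3.77 at baseline and −4.15, −4.10, −3.79 and −3.98 at 5dpr, which overlapped (difference 1.17, exact permutation p = 0.143).

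The log2 ratio of Mfap5 to Mfap2 was 3.04, 2.92, 2.24 and 2.81 in the immature baseline libraries and 3.24, 3.88, 4.09 and 3.42 at 2dpr, which did not overlap (difference 0.908, exact permutation p = 0.0286, adjusted 0.229). In mature 2dpr it was 4.85, 4.08, 10.30 and 4.11, where the value of replicate 3 came from 0 reads of Mfap2. With so few libraries an adjusted p below 0.05 could arise only if most of the 16 comparisons separated fully, so the adjusted values, all at least 0.229, say little about whether a ratio changed.

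**Figure D4:**
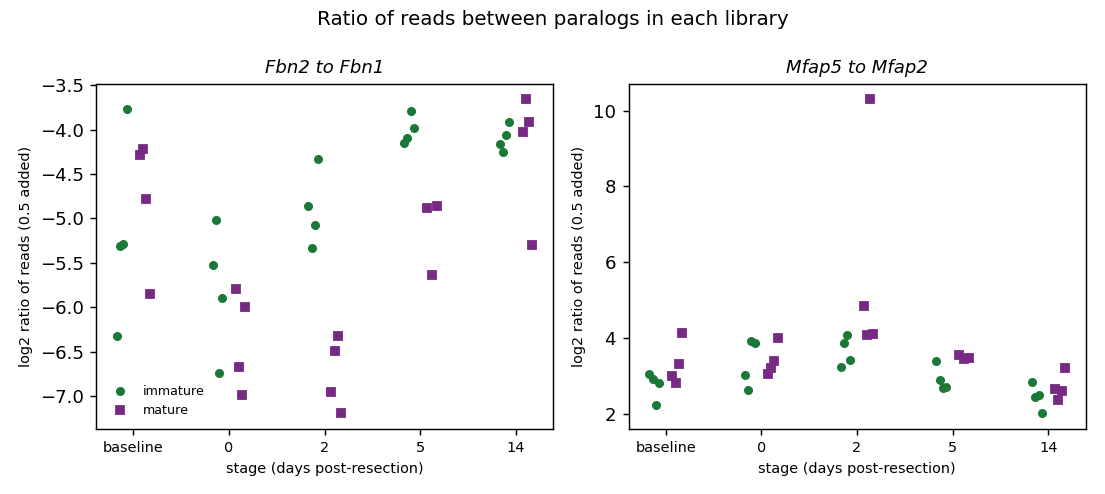
Log2 ratio of reads (y axis, 0.5 added) of Fbn2 to Fbn1 and of Mfap5 to Mfap2 in each library by stage (x axis), for immature (green circles) and mature mice (purple squares). The 4 mature 2dpr libraries lie between −7.19 and −6.32 for Fbn2 to Fbn1, and the square at 10.30 for Mfap5 to Mfap2 is the library with 0 reads of Mfap2.

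Most of the genes that assemble or crosslink the fibre rose at 2dpr. Of 12 such genes (lysyl oxidases, further fibulins and emilins, Fkbp10 and Mfap3), 8 rose from 0dpr to 2dpr in immature mice and 9 in mature mice, while 2 fell at either age. Of all genes, 21.8% rose and 22.2% fell at this step in immature mice (mature: 22.7% and 24.9%), shares to which the lists below compare as well. With the muscle score as covariate the calls over all pathway lists at this step were 13 instead of 30 in immature mice and 12 instead of 31 in mature mice. Lox, which oxidizes lysines of tropoelastin and collagen, rose by log2 1.71 ± 0.17 (adjusted p = 7.26e-10) in immature and 2.89 ± 0.18 (adjusted p = 7.98e-15) in mature mice. For its relative Loxl3 the values were 2.34 ± 0.21 (adjusted p = 2.99e-11) and 2.85 ± 0.21 (adjusted p = 3.56e-13). By 5dpr 3 of 12 had risen above 2dpr in immature mice and 6 of 12 in mature mice, with 1 lower at each age, beside 4.37% and 8.16% of all genes higher. Over all pathway lists the mature calls at this step were 6 instead of 18 in the fit of the compared groups alone. The immature calls, 13, were 8 without 2dpr replicate 2, 7 without 2dpr replicate 3 and 8 without 5dpr replicate 5. These limits hold for the lists below too. Fbln7, a fibulin of the same family, was among those that rose, by log2 1.76 ± 0.33 (adjusted p = 0.000508) and 2.33 ± 0.36 (adjusted p = 1.76e-05). Between baseline and 14dpr 12 of 12 rose in immature and 11 of 12 in mature mice, beside 16.4% and 17.1% of all genes. With the muscle score as covariate the calls over all pathway lists for this course were 14 instead of 30 in immature and 25 instead of 32 in mature mice.

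The genes of the latent TGF-beta binding proteins, which share the fold of fibrillins, moved in both directions, as all genes did. Between 0dpr and 2dpr Ltbp2 rose by log2 0.98 ± 0.28 (adjusted p = 0.00487) in immature and 1.23 ± 0.28 (adjusted p = 0.000503) in mature mice. Over the same step Ltbp4, a partner of Fbln5 in elastic fibre assembly, fell, at log2 −1.91 ± 0.27 (adjusted p = 4.57e-07) in immature and −2.33 ± 0.28 (adjusted p = 9.85e-09) in mature mice. That was 1 of 4 higher and 1 of 4 lower in immature mice, beside 21.8% and 22.2% of all genes. In mature mice it was 1 and 2 of 4, beside 22.7% and 24.9%. At 5dpr 1 of 4 was higher than at 2dpr in immature and 3 of 4 in mature mice. Between 5dpr and 14dpr Ltbp4 rose at both ages, by log2 0.98 ± 0.26 (adjusted p = 0.0288) and 1.21 ± 0.29 (adjusted p = 0.0112). Over all pathway lists the mature calls at this step, 10, were 6 without 5dpr replicate 3 and 4 without 5dpr replicate 4, and the immature calls were 14 instead of 9 in the fit of the compared groups alone. Of 8 tested regulators of fibrillin (Adamts and Adamtsl proteins, Thsd4 and Furin), 5 fell from 0dpr to 2dpr in immature mice and 4 in mature mice, and Furin alone rose. Between baseline and 14dpr 2 of 8 rose at each age, Adamts17 and Furin.

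Enzymes that can cleave elastin moved in both directions. Of 9 tested, 2 fell in immature and 6 in mature mice from baseline to 0dpr, beside 4.66% and 10.6% of all genes, and the others did not pass. All 7 macrophage markers fell in mature mice at that step. Over all pathway lists the mature calls there were 0 instead of 14 with the muscle score as covariate. The immature calls were 1 instead of 6 with the covariate, 0 in the fit of the compared groups alone, 3 without baseline replicate 4 or 6 and 1 without 0dpr replicate 3. Then 4 rose and 1 fell from 0dpr to 2dpr at each age, with a median log2 fold change of the 9 of −0.44 in immature and −0.22 in mature mice. Macrophage elastase, Mmp12, was at a mean of 0.987 CPM at 0dpr and 102 CPM at 2dpr in immature mice (log2 6.66 ± 0.53, adjusted p = 3.18e-12), and at 2.72 and 118 CPM in mature mice (log2 5.44 ± 0.48, adjusted p = 1.24e-11). All 7 macrophage markers rose at this step at both ages, and their summed level is given with the other markers. Ctss, a lysosomal elastase, rose by log2 4.71 ± 0.25 (adjusted p = 2.89e-16) and 4.37 ± 0.25 (adjusted p = 6.39e-16). Mmp2 rose between 2dpr and 5dpr, by log2 1.79 ± 0.17 (adjusted p = 1.07e-08) in immature and 1.76 ± 0.18 (adjusted p = 1.51e-08) in mature mice. Ctsk, known from osteoclasts, rose from 2dpr to 5dpr, by log2 1.40 ± 0.34 (adjusted p = 0.00685) and 1.44 ± 0.36 (adjusted p = 0.00571), and again to 14dpr, by 1.79 ± 0.34 (adjusted p = 0.00141) and 1.77 ± 0.38 (adjusted p = 0.00431). Of 8 integrin genes whose products bind these matrix proteins or latent TGF-beta, 4 rose and 3 fell from 0dpr to 2dpr at each age. Itga5, the fibronectin receptor subunit, rose by log2 2.46 ± 0.21 (adjusted p = 9.2e-12) and 3.10 ± 0.21 (adjusted p = 5.35e-14).

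Across the 39 libraries the members varied together to different degrees. The Pearson r of log2 CPM over the 45 pairs of members had a median of 0.72, from −0.232 to 0.944. Within groups, after the group means were removed, the median was 0.293, from −0.227 to 0.682. Libraries share stage and age, so that these values describe the course and carry no p. The correlation with the mean of the other 9 members was highest for Mfap4 (0.955), Mfap5 (0.921) and Fbn2 (0.904) and lowest for Fbln1 (0.231) and Fbln5 (0.505). Of 12429 other genes with a mean of at least 5 CPM, those most like the mean z-score of the 10 members were Col6a2 (r = 0.987), Col6a1 (0.977), Thbs3 (0.976), Col14a1 (0.970) and Ptgfrn (0.966). Those most like Eln were Rian (0.914), Cilp (0.906), Nid1 (0.904), Adamts12 (0.902) and Lamc1 (0.897).

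Markers of cell types in the composite tissue moved along with these results. The summed level of the 20 skeletal muscle genes in immature mice was 97582, 111699, 116262 and 89423 CPM at baseline, 126306, 151961, 232402 and 168249 at 0dpr and 27666, 19526, 31475 and 23045 at 2dpr. In mature mice it was 50571, 49034, 89842 and 94793 CPM at baseline, 173978, 131849, 261775 and 151991 at 0dpr and 16124, 18237, 22645 and 31780 at 2dpr. All libraries of 2dpr lay below all libraries of baseline and 0dpr. At 5dpr and 14dpr the group means were 38355 and 23797 CPM in immature and 37562 and 29521 CPM in mature mice. Ttn was the most abundant gene of the list, and no gene of the list was at 0 in all libraries of a group. The part of muscle content in the members' changes was not tested, since the fits with the muscle score cannot tell it from stage where the score did not overlap.

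The 9 fibroblast markers summed to 16507, 15366, 16799 and 18989 CPM at 2dpr and 32128, 44299, 46668 and 38995 CPM at 5dpr in immature mice. In mature mice they summed to 8954, 10571, 8000 and 7758 CPM at 2dpr and 30562, 35005 and 32032 CPM at 5dpr. The 5dpr libraries were all above those of 2dpr, with 6 of 9 markers higher in immature and 8 of 9 in mature mice past the threshold, Col3a1 the most abundant, and no marker at 0 in all libraries of a group. At this step, at which most microfibril-associated genes rose, 5 of 7 tendon markers rose at each age, and 4 of 20 muscle markers in immature and 12 of 20 in mature mice. Of 8 chondrocyte markers 2 and 1 rose and of 7 macrophage markers 3 and 1 fell, and 1 osteoblast marker rose in immature and 1 adipocyte marker in mature mice. The part of any of these cells in the members' rise was not tested. Tendon markers summed to means of 481 CPM at 2dpr and 1148 CPM at 5dpr in immature mice and 322 and 955 CPM in mature mice, with Thbs4 the most abundant. Chondrocyte markers summed to means of 368 CPM at baseline and 2154 CPM at 14dpr in immature mice and 224 and 1789 CPM in mature mice, with Col11a1 the most abundant.

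The 7 macrophage markers summed to a mean of 1510 CPM at 0dpr and 7829 CPM at 2dpr in immature mice, and 1593 and 7633 CPM in mature mice, with Lyz2 the most abundant. The 9 vascular smooth muscle markers, cells known to make elastin, summed to means of 1699, 2053, 1128, 1625 and 735 CPM in immature mice, in order of stage, and 1163, 2505, 1307, 2172 and 924 CPM in mature mice. From 2dpr to 5dpr 2 of 9 rose in immature and 6 of 9 in mature mice, and from 5dpr to 14dpr 4 and 5 of 9 fell, with Des, also a muscle gene, the most abundant.

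**Figure D5:**
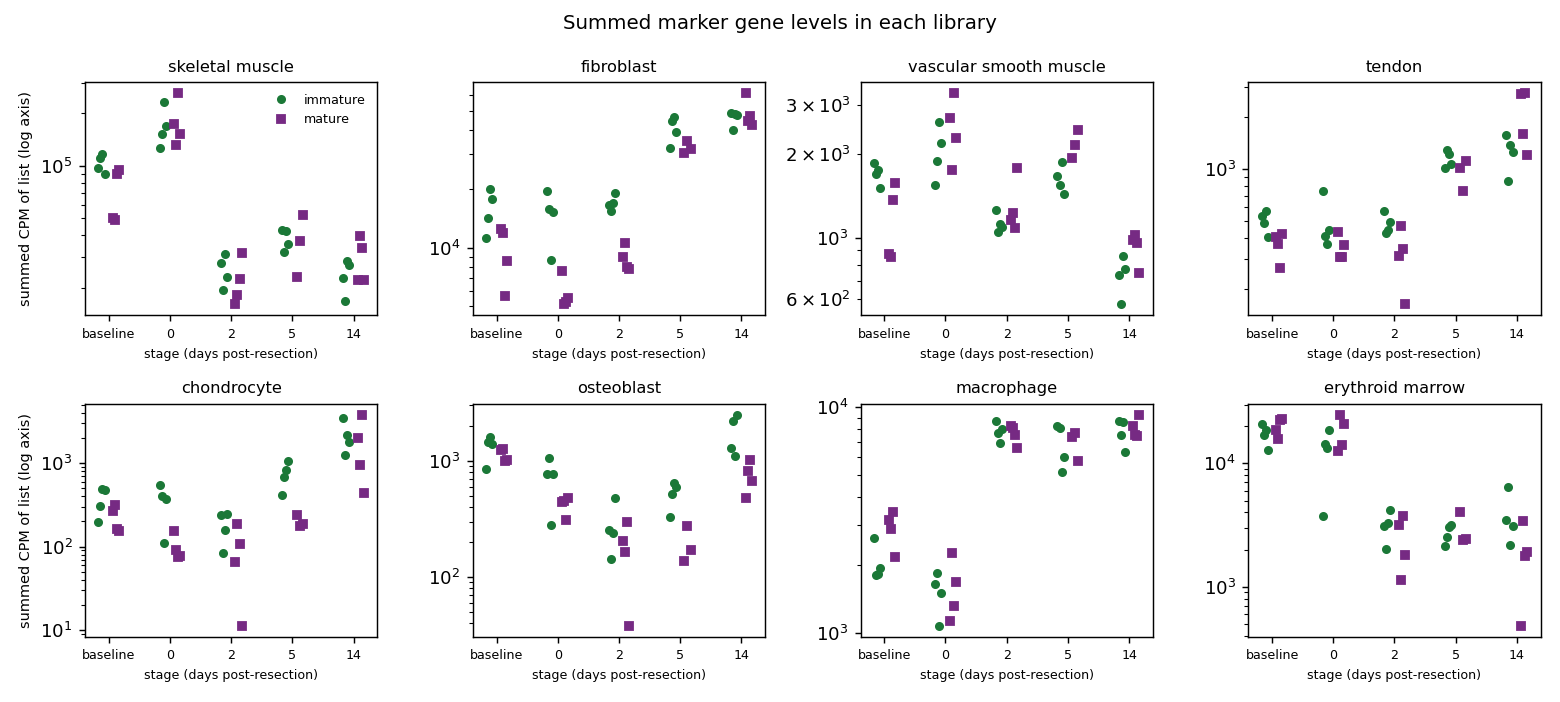
Summed CPM (y axis, log scale) of 8 marker lists in each library by stage (x axis), for immature (green circles) and mature mice (purple squares). Skeletal muscle markers fall to group means of 25428 and 22197 CPM at 2dpr, and fibroblast markers reach 40523 and 32533 CPM at 5dpr.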

How the data were processed

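Bulk RNA of composite rib tissue was sequenced from 39 libraries in 10 groups of age and stage, and levels of 10 elastic fibre genes were compared. The count tables are raw reads per gene that the authors mapped to GRCm38 and counted with STAR 2.5.2a, and the tested table is their filtered one, of 21204 out of 48733 genes. The signal table, as deposited, holds CPM scaled with TMM factors, which was matched by the CPM computed here from the counts. Libraries were made with a stranded TruSeq kit, pooled and sequenced in separate runs on a NovaSeq, with no run stated per library.

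All libraries were fitted in 1 model of 10 groups with edgeR 4.0.16 (TMM, quasi-likelihood test) and limma 3.58.1 in R 4.3.3. P-values were adjusted by Benjamini-Hochberg over all genes of each comparison, with a threshold of 0.05. Ratios were compared by exact two-sided permutation, and descriptions and figures were made in Python 3.11.15 with scipy 1.17.1 and matplotlib 3.10.9. Age comparisons of the members are descriptions, as is the difference between ages in the change between stages, since the age comparison helped to choose the members. The members and the gene lists were chosen with earlier results of these data known. Named genes are the members, in each pathway list up to 2 with the largest absolute log2 fold change past the threshold and a mean of at least 1 CPM, the 5 most like Eln and the 5 most like the mean of the members, and genes of the marker lists.

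Alternatives were RLE scaling, other gene filters, a replicate block, a muscle score as covariate (the mean log2 CPM of the muscle list), fits of only the compared groups, DESeq2 1.42.0 and each library left out in turn. Same-numbered libraries deviated together in 1 comparison, immature against mature 0dpr (r of 0.103 to 0.31 over 4 pairs). There the block left the number of members past the threshold as it was. Scripts were tested on simulated data.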

Additional observations from a re-analysis of the deposited data

Results flagged for a closer look

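Of 90 pairs of a member and a group of 4 libraries, 3 held a library far from the other 3, by the share of the group's range of log2 CPM that lies between that library and the next (Dixon's ratio, past a limit that chance alone passes in about 1 in 20 such groups, so 3 of 90 is no more than chance would give). Mfap2 at immature baseline had a ratio of 0.888, with 7.88, 7.52, 11.3 and 7.85 CPM. The third of these, replicate 4, was the high one. Mfap5 in immature 5dpr had a ratio of 0.949, with 256, 256, 260.1 and 185 CPM, and its replicate 5 was the low one. Fbln2 in mature 14dpr had a ratio of 0.831, with 822, 561, 546 and 585 CPM, and its replicate 1 was the high one. Each library stood apart for 1 member only.

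The largest difference between ages in the change from baseline to 14dpr among the members was that of Mfap4, at log2 −1.93 ± 0.34, immature minus mature, given as a description with no test. The difference lay at baseline, where immature libraries had 31.4, 28.7, 35.9 and 28.6 CPM and mature libraries 8.28, 6.12, 7.20 and 10.99 CPM, while 14dpr libraries overlapped. This value is not independent of how the members were chosen, since the choice drew on the age comparison, so it supports nothing beyond these levels.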

How the results depend on the processing

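Of the 58 member changes between stages that passed the threshold, 55 passed with RLE size factors, 57 with filterByExpr genes, 56 with all genes with a count, 57 with DESeq2 and 51 in fits of only the groups compared. With the skeletal muscle score as covariate 39 passed. All 58 kept their direction in each of these settings, except Fbn2 from 0dpr to 2dpr in mature mice with the muscle covariate (log2 −0.087). In each case below the cause was not tested.

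The number of members past the threshold moved by more than 1.5 times as follows. For immature 0dpr against baseline, 2, it was 0 in the fit of only the groups compared and 4 with DESeq2. For immature 2dpr against 0dpr, 8, it was 3 with the muscle covariate, and for the same step in mature mice, 7, it was 2. For immature 14dpr against 5dpr, 2, it was 1 with RLE size factors and 1 with the muscle covariate, and 1 to 2 with a library left out. For mature 0dpr against baseline, 5, it was 0 with the muscle covariate and 1 to 7 with a library left out. For mature 14dpr against 5dpr, 2, it was 1 with the muscle covariate, 5 in the fit of only the groups compared and 1 to 3 with a library left out.

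The fits also yield counts for the age comparisons. Those comparisons helped to choose the members, so the counts are no test of them, and they are listed only to show how far processing moves them. There the count of members past the threshold with a library left out was 2 to 5 at baseline (4), 3 to 6 at 0dpr (5) and 2 to 5 at 2dpr (4). In fits of only the groups compared it was 0 at 0dpr and 0 at 2dpr. For the difference between ages in the change from baseline to 14dpr, 1, it was 3 in fits of only the groups compared and 0 to 2 with a library left out. In the fit of all groups 0.358%, 0.571% and 0.457% of all genes were called higher in immature mice at baseline, 0dpr and 2dpr. For the difference in the change from baseline to 14dpr 0.0472% of all genes were called.

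The number of pathway genes past the threshold moved as follows. For immature 0dpr against baseline, 6, it was 1 with the muscle covariate, 0 in the fit of only the groups compared and 1 to 9 with a library left out. With the muscle covariate it was 13 instead of 30 for immature 2dpr against 0dpr, 14 instead of 30 for immature 14dpr against baseline, 0 instead of 14 for mature 0dpr against baseline and 12 instead of 31 for mature 2dpr against 0dpr. In fits of only the groups compared it was 14 instead of 9 for immature 14dpr against 5dpr and 6 instead of 18 for mature 5dpr against 2dpr. With a library left out it was 7 to 14 for immature 5dpr against 2dpr, 13, and 4 to 10 for mature 14dpr against 5dpr, 10.

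In each of the other 14 comparisons the lowest r of a same-numbered pair was 0.00316 or less, so the pairs did not all deviate together. Single pairs reached 0.192, for mature 0dpr against baseline. With 2 to 4 pairs in a comparison, it cannot be told whether some share an animal or handling. With the replicate block, as if paired, 57 of the 58 changes passed, and members past the threshold were 1 instead of 2 for immature 14dpr against 5dpr, where Fbln1 missed it (log2 0.74, adjusted p = 0.0799). Pathway genes for immature 0dpr against baseline were 2 instead of 6. The block changed no other member call, and values below the threshold reversed for Fbln1 (−0.20 for immature 0dpr and −0.11 for immature 14dpr, both against baseline) and Mfap5 (−0.12 for immature 14dpr against 5dpr).

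Other reversals concerned log2 fold changes that had not passed. With all genes with a count, Fbn1 was 0.016 for immature 14dpr against 5dpr. With the muscle covariate, Mfap2 was −0.026 for immature 2dpr against 0dpr, Fbln2 −0.047 for immature 5dpr against 2dpr, Fbln1 −0.19 for immature 14dpr against baseline, and Fbln1 0.046 and Fbln5 0.096 for mature 0dpr against baseline.

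With a library left out, the log2 fold change for immature 0dpr against baseline ranged from −0.26 to 0.11 for Mfap2, −0.29 to 0.15 for Fbln1 and −0.0083 to 0.17 for Fbln5. For Fbln1 in immature 14dpr against baseline it was −0.047 to 0.18. For immature 14dpr against 5dpr it was −0.021 to 0.29 for Eln, −0.14 to 0.12 for Fbn1, −0.25 to 0.051 for Fbn2 and −0.086 to 0.10 for Mfap5. For mature 14dpr against 5dpr it was −0.10 to 0.29 for Eln and −0.085 to 0.10 for Mfap5. For Eln in immature 2dpr against 0dpr it was −0.38 to 0.25, for Fbln2 in immature 5dpr against 2dpr −0.070 to 0.090, and for Mfap4 in mature 2dpr against 0dpr −0.50 to 0.053.

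Leaving mature 2dpr replicate 3 out of fits for comparisons that do not hold it was chosen after seeing the data. With 3 or 4 libraries in a group, and group means of members down to 2.79 CPM in mature mice, small changes of Mfap2 and Fbn2 are hard to detect.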
